A study of Homo sapiens with 6 samples.

Results

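The genes described here are 9 genes of the interferon response: IFIT1, IFIT2, IFIT3, IFIT5, ISG15, USP18, STAT2, IRF7 and IRF9. They were chosen by symbol with the comparison of knockout and wild-type cells already known, in which IFIT5 and USP18 had lower counts, so their own values, and the counts of them that pass a threshold, are given as a description, with no p-value. The 9 genes are among 56832 symbols in the deposited count table, and 8 of them (all but IFIT2) were among the 18061 genes with enough counts to enter the fit. The data are RNA-seq counts from HEK293T cells, a human embryonic kidney line that carries the SV40 large T antigen. The 2 groups are wild-type HEK293T (3 libraries) and HEK293T in which SMARCA3 was knocked out (3 libraries). SMARCA3, listed in the table as HLTF, is a DNA translocase and ubiquitin ligase, and the series is about its action on histone H3 and the repressive mark H3K9me3. The labels name no interferon, virus or other treatment in either group. They do not say whether the knockout cells are a clone or a pool, nor whether replicates are separate cultures, so the errors measure the spread between these libraries, which may be technical.

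As background, type I interferon binds a receptor at the cell surface whose kinases JAK1 and TYK2 phosphorylate STAT proteins, STAT2 among them. Phosphorylated STAT2 joins IRF9 in a complex that binds the interferon-stimulated response element (ISRE) in the promoters of target genes, the IFIT genes and ISG15 among them. IFIT proteins bind RNA, and several of them recognise features of the 5′ end that mark foreign RNA. ISG15 is a small ubiquitin-like protein that is joined to other proteins, and USP18 takes it off again and also dampens signalling at the receptor.

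The libraries held 33125811 to 41593655 counted reads, and levels are given as CPM, the counts scaled to a common library size with the TMM factors of edgeR. HLTF itself stood at 215, 191 and 195 CPM in the wild-type libraries and at 141, 140 and 149 CPM in the knockout libraries, with a log2 fold change (SE) of -0.48 (0.05). Around HLTF, the 40 nearest tested genes averaging 2 CPM or more had a median of -0.50 on that scale (27 lower and 4 higher), a drop as large as that of HLTF. The labels do not give the edited site, so a count over the whole gene does not test the loss of the protein. Of all tested genes, edgeR's quasi-likelihood test called 2532 higher and 3205 lower in the knockout at an adjusted p (Benjamini-Hochberg) under 0.05. All 8 HEK293 markers examined were above 1 CPM in every library, with summed levels of 386 to 406 CPM in wild-type and 286 to 294 CPM in knockout libraries. Of 7 leukocyte markers, CD3E was at 0 in every library and PTPRC averaged 0.00803 CPM in wild-type and 0.0192 CPM in knockout, and the summed level was 2.46 to 3.91 CPM against 3.00 to 3.64 CPM. The 5 endothelial markers summed to 0.539 to 0.577 CPM against 0.299 to 0.818 CPM. The 7 fibroblast markers summed to 7.37 to 9.24 CPM against 6.87 to 7.92 CPM, with DCN at 0 throughout and most of the sum from COL1A1.

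Among the IFIT genes, IFIT5 and IFIT1 were lower in the knockout, while IFIT3 had few counts and overlapped between the groups and IFIT2 was close to the limit of detection. IFIT5, whose protein binds RNA with a 5′ phosphate, was at 14.1, 11.9 and 12.8 CPM in wild-type libraries and at 3.15, 3.78 and 3.73 CPM in knockout libraries. The means were 12.9 ± 1.13 and 3.55 ± 0.351 CPM (SD, n = 3 each), so that the knockout held 27.4% of the wild-type level, a log2 fold change of -1.87 (SE 0.10, 95% interval -2.10 to -1.64). Every knockout library was below every wild-type library, and the gap between the groups was many times the spread within either. IFIT1, whose protein binds capped RNA that lacks a methyl mark on its first nucleotide, was at 4.84, 4.13 and 4.85 CPM against 1.63, 2.09 and 2.82 CPM. Its log2 fold change was -1.08 (SE 0.17, 95% interval -1.46 to -0.71), which left 47.3% of the wild-type level. The groups did not overlap for IFIT1 either, but the 3 knockout libraries were spread more widely than those of IFIT5, and the intervals of the 2 fold changes did not overlap.

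IFIT3, which binds IFIT1 and stabilises it, had 16, 15 and 22 counts in wild-type and 14, 23 and 17 counts in knockout libraries. The groups overlapped, and the log2 fold change of 0.21 (SE 0.28, 95% interval -0.40 to 0.82) did not exceed its error. IFIT2, which also forms complexes with the other family members, had 7, 3 and 2 counts against 2, 0 and 2 counts and was not tested. Its ratio of wild-type to knockout, from 12 and 4 counts in all, was 2.63 with an exact 95% counting interval of 0.799 to 11.2, so a change of the size seen for IFIT1 or IFIT5 could be neither shown nor set aside at this depth. A value of 3 counts, the limit that a count of 0 allows, corresponds to 0.0723 to 0.0909 CPM in these libraries. IFIT1B, a neighbouring copy, had no count in any library.

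The 4 genes and IFIT1B lie in a cluster on the plus strand of chromosome 10 (hg38, GENCODE v29), with IFIT2 at chr10:89283694-89309276, IFIT3 at chr10:89327894-89340971, IFIT1 at chr10:89392546-89406486 and IFIT5 at chr10:89414586-89421001. The summed IFIT level was 19.5, 16.5 and 18.3 CPM in wild-type and 5.24, 6.49 and 7.12 CPM in knockout libraries. IFIT5 made up 72.3%, 72.1% and 70.1% of that sum in wild-type libraries and 60%, 58.2% and 52.3% in knockout libraries. The ratio of IFIT5 to IFIT1 counts, which does not depend on library scaling, was 2.92, 2.88 and 2.64 in wild-type and 1.93, 1.81 and 1.32 in knockout libraries, again without overlap between the groups.

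**Figure D1:**
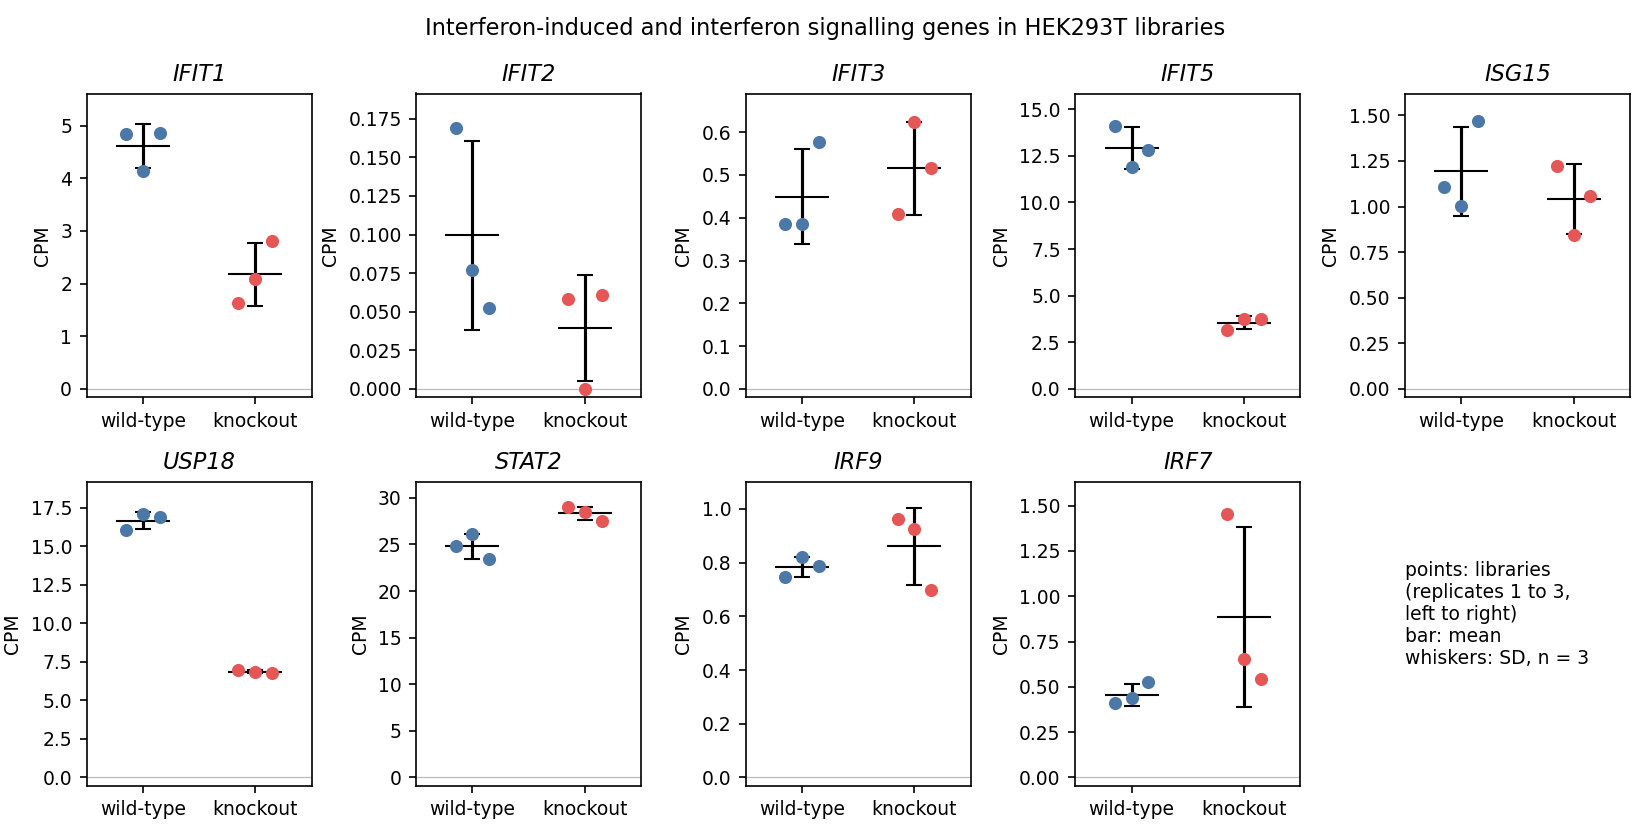
Level of each of the 9 genes in every library, in CPM on a linear axis that differs between panels, with points for libraries, a bar for the group mean and whiskers for the SD (n = 3). IFIT5, USP18 and IFIT1 have every knockout point below every wild-type point, STAT2 and IRF7 have every knockout point above, and the other 4 genes overlap between the groups.

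The promoter windows of IFIT5, IFIT1, IFIT3 and ISG15 hold the letters of the ISRE, and they are shown because these 4 genes differ in response. The sequences are from RefSeq (GRCh38.p14), read on the strand of the gene, which is the plus strand in each case. Capitals mark matches to GAAANNGAAA on either strand, written TTTCNNTTTC where the match lies on the opposite strand, and overlapping matches run together. The window searched was 250 bases before to 50 bases after the annotated start, and the stretch printed is the part around the matches. IFIT5 is shown from chr10:89414483-89414593, IFIT1 from chr10:89392467-89392549, IFIT3 from its 2 annotated starts at chr10:89327801-89327904 and chr10:89332395-89332507, and ISG15 from chr1:1013344-1013419.
IFIT5: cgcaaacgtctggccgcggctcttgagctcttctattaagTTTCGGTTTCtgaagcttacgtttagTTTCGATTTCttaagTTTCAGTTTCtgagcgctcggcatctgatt
IFIT1: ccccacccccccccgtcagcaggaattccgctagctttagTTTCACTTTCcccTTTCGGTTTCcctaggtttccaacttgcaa
IFIT3, first start: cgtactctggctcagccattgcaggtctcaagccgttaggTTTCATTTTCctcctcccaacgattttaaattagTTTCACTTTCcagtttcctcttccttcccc
IFIT3, second start: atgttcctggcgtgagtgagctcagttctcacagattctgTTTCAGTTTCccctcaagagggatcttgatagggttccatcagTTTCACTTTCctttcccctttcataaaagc
ISG15: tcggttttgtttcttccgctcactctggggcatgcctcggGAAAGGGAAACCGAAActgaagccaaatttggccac

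IFIT5 had 3 matches, at positions -45, -19 and -4 from its start, IFIT1 had 2 at -116 and -103, IFIT3 had 2 at each start, and ISG15 had 2 overlapping matches at -113 and -107. Of 35116 promoter windows of the same length, 3.57% held at least 1 match, 0.259% at least 2 and 0.037% (13 windows) at least 3. The windows of STAT2 and IRF9 held none. IRF9 held the letters TTCNNNGAA, the site bound by STAT dimers, at -63, as did 7.66% of all windows. No window was found for IFIT2, USP18 or IRF7. Of the members with a match, IFIT5 and IFIT1 were lower and IFIT3 and ISG15 overlapped between the groups, with the wide intervals given for these low genes. Neither member whose window held no match, STAT2 or IRF9, was lower. The members were chosen with this comparison known, and USP18 had no window, so nothing is read from how matches and changes fall together. A match of letters is a description and does not show that a factor was bound.

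The ISG15 pair differed in the same way, with the protease lower and its substrate overlapping. USP18 was at 16.0, 17.1 and 16.9 CPM in wild-type and 6.96, 6.82 and 6.79 CPM in knockout libraries, means of 16.7 ± 0.556 and 6.85 ± 0.0927 CPM (SD, n = 3 each). The knockout held 41.1% of the wild-type level, a log2 fold change of -1.28 (SE 0.07, 95% interval -1.44 to -1.12). The groups were far apart and each was tight. ISG15 had 46, 39 and 56 counts in wild-type and 42, 31 and 35 counts in knockout libraries, or 1.11, 1.00 and 1.47 CPM against 1.22, 0.842 and 1.06 CPM. Its log2 fold change was -0.20 (SE 0.21, 95% interval -0.66 to 0.27), and the groups overlapped. The ratio of USP18 to ISG15 counts went from 14.5, 17.1 and 11.5 in wild-type to 5.69, 8.10 and 6.40 in knockout libraries, without overlap.

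USP18 lies on chromosome 22 (chr22:18149899-18177397, plus strand) and ISG15 on chromosome 1 (chr1:1001138-1014540, plus strand). USP18 shares sequence with its copy USP41: of the 50-base words of its exons, 23.41% also occur in another gene, nearly all of them in USP41. USP41 had 0 counts in every wild-type library and 1, 2 and 1 counts in the knockout libraries, beside 16.7 and 6.85 CPM of USP18. How reads that match both genes were counted is not stated, so USP18 values carry that uncertainty. IFIT5, ISG15 and IRF7 shared no 50-base word with another gene, IFIT1 shared 1.02%, STAT2 0.91%, IFIT3 3.64% and IFIT2 7.91%.

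STAT2, IRF7 and IRF9, on chromosomes 12, 11 and 14 (chr12:56341597-56360155 and chr11:612553-615999 on the minus strand, chr14:24161053-24166565 on the plus strand), were not lower. STAT2, which binds IRF9 in the interferon complex, was at 24.8, 26.1 and 23.4 CPM in wild-type and at 28.98, 28.5 and 27.6 CPM in knockout libraries, means of 24.8 ± 1.34 and 28.4 ± 0.717 CPM (SD, n = 3 each). Its log2 fold change was 0.19 (SE 0.06, 95% interval 0.06 to 0.33), and every knockout library was above every wild-type library. STAT2 passed the threshold in the fit of all 6 libraries and in 7 of 14 alternatives. It did not pass without wild-type replicate 3 (log2 fold change 0.161) or without knockout replicate 1 (0.190), 2 (0.191) or 3 (0.214). With all 6 libraries it did not pass under DESeq2 (0.201), with no filter on low counts (0.185) or with the replicate block (0.195). IRF7, the factor that drives a second wave of interferon genes, had 17, 17 and 20 counts against 50, 24 and 18 counts, or 0.410, 0.436 and 0.525 CPM against 1.46, 0.652 and 0.545 CPM. The groups did not overlap, but most of the difference came from knockout replicate 1, and the log2 fold change of 0.95 (SE 0.37) became 0.41 without it. IRF9, a DNA-binding part of the complex, was at 0.747, 0.821 and 0.787 CPM against 0.961, 0.923 and 0.697 CPM, with a log2 fold change of 0.14 (SE 0.20, 95% interval -0.30 to 0.58) and overlapping groups. IRF9 values are uncertain, because 43.81% of its 50-base words occur in other genes, 1789 of the 1815 shared words in AL136295.5, a gene that overlaps it on the same strand and is not in the count table.

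Of the 8 members that were tested, 3 were called lower (IFIT1, IFIT5 and USP18), 1 higher (STAT2) and 4 neither way, where 17.7% of all tested genes were called lower and 14.0% higher. The CPM ranges of the groups were apart for 3 members with the knockout lower and for 2 with it higher, where 24.4% and 21.2% of all tested genes had such ranges. Nothing is read from these shares, since the genes were selected on this same comparison.

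Levels between genes were compared per kilobase of exon. In wild-type cells USP18 (7.83 ± 0.261 CPM per kilobase) and STAT2 (7.31 ± 0.395) stood highest and overlapped, followed by IFIT5 (3.22 ± 0.280), ISG15 (1.27 ± 0.260) and IFIT1 (0.999 ± 0.0897), all SD with n = 3, and each of these 3 was apart from its neighbours in that order. IRF9 (0.399), IRF7 (0.213), IFIT3 (0.170) and IFIT2 (0.0242) were lower, with IRF7 and IFIT3 overlapping. In knockout cells STAT2 (8.36) stood alone at the top, USP18 (3.22) came second, and IFIT5 (0.884) fell to the level of ISG15 (1.11), with overlapping libraries. IFIT1 (0.473) then overlapped IRF9 (0.438), which overlapped IRF7 (0.413).

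**Figure D2:**
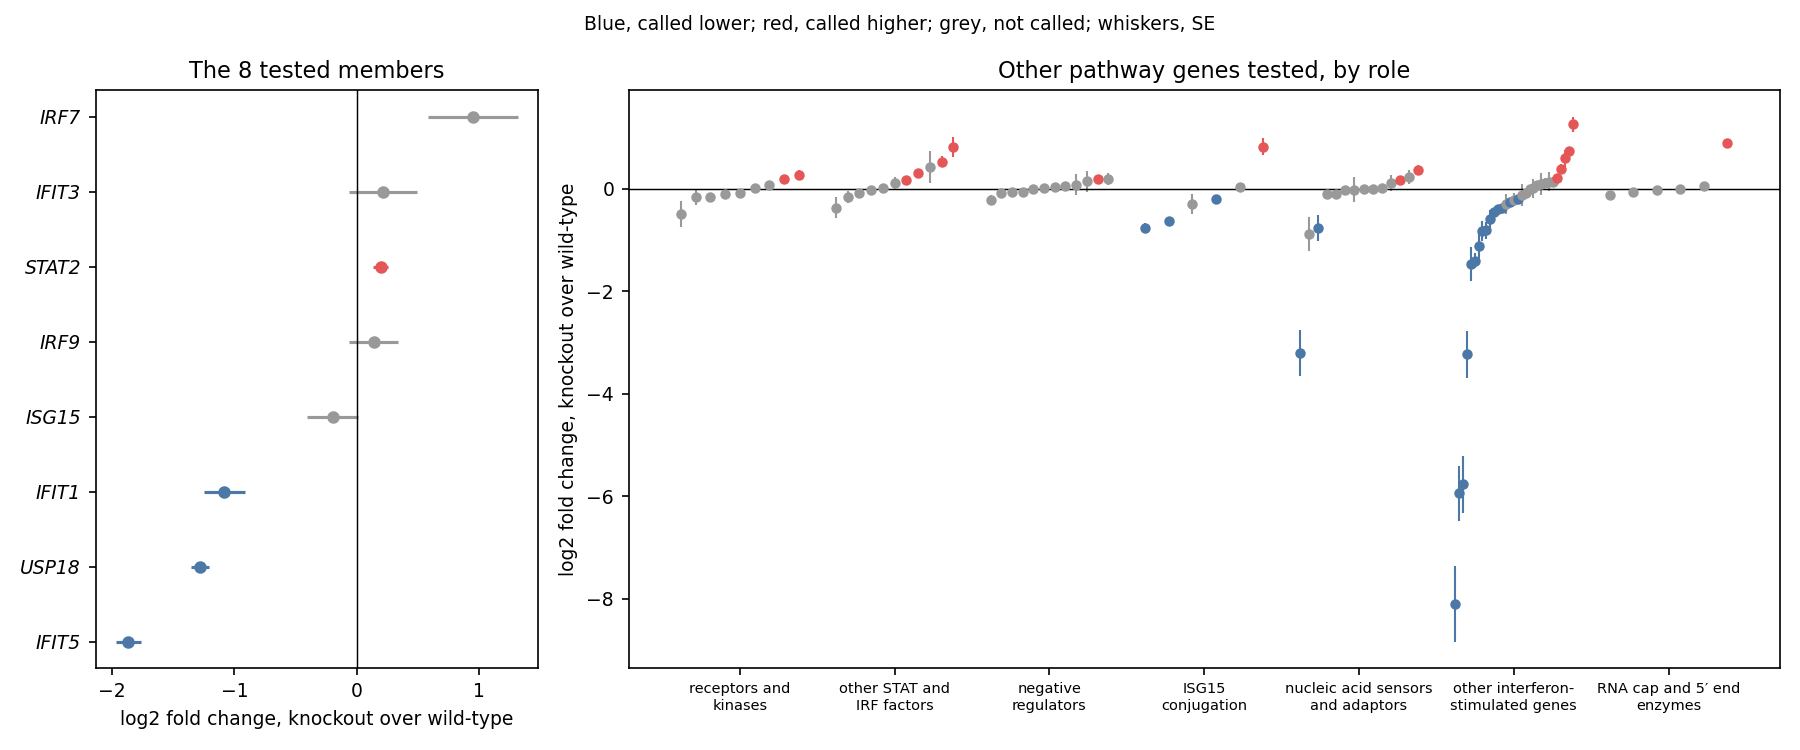
Log2 fold change, knockout against wild-type, of the 8 tested members (left) and of the other tested pathway genes by role (right), with whiskers for the SE, blue for genes called lower, red for genes called higher and grey for the rest. IFIT5, USP18 and IFIT1 lie well below 0, ISG15 lies just below 0 and IRF9, STAT2, IFIT3 and IRF7 above it. The lowest point on the right is DTX3L, which has no count in the knockout, so its value depends on the prior count of the fit and is no bound.

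The other genes of the pathway were taken from lists of 142 genes, of which 88 were tested, and 16 of these (18.2%) were higher and 20 (22.7%) lower in the knockout, beside 14.0% and 17.7% of all tested genes. These lists were written with earlier results of these data known. The 21 interferon genes themselves were not tested: 12 had no count at all, and none averaged above 0.0640 CPM in either group. Of 9 receptor and kinase genes, 2 were higher by small amounts, IFNGR1, a chain of the interferon-gamma receptor (log2 fold change 0.19, SE 0.05, edgeR adjusted p = 0.0104), and the kinase TYK2 (0.28, SE 0.09, edgeR adjusted p = 0.0441). IFNAR1, a chain of the type I interferon receptor, averaged 90.1 CPM in wild-type and 91.8 CPM in knockout. Of 11 other STAT and IRF factors, 4 were higher and none lower, among them STAT3 (0.32, SE 0.05, edgeR adjusted p = 0.000495) and IRF8 (0.53, SE 0.11, edgeR adjusted p = 0.00454). Of 12 negative regulators, 1 passed the test, IRF2BP2, a corepressor that binds IRF2 (0.19, SE 0.05, edgeR adjusted p = 0.0105). STAT3 and IRF8 kept the call in each of 14 alternatives. IFNGR1 missed the threshold without wild-type replicate 2 (log2 fold change 0.164, edgeR adjusted p = 0.0512), and IRF2BP2 without knockout replicate 2 (0.157, edgeR adjusted p = 0.0643). TYK2 missed it without wild-type replicate 2 (0.311) or knockout replicate 1 (0.212) or 3 (0.288), with robust dispersion (0.276) and with the replicate block (0.279), at edgeR adjusted p values of 0.0542 to 0.122, so its fold change stayed of similar size.

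Of the 6 tested genes that join ISG15 to proteins, 3 were lower and 1 higher, beside 17.7% lower and 14.0% higher over all tested genes. UBA7, the enzyme that activates ISG15, rose from 0.810 to 1.44 CPM (log2 fold change 0.83, SE 0.17, edgeR adjusted p = 0.00343). Of the ligases, TRIM25, which also acts on the RNA sensor RIG-I, fell from 62.6 to 40.5 CPM (-0.63, SE 0.05, edgeR adjusted p = 2.82e-06), and HERC6, a relative of the main human ISG15 ligase, fell from 7.40 to 4.35 CPM (-0.77, SE 0.10, edgeR adjusted p = 0.000137). HERC5, the main ligase, averaged 25.8 CPM against 22.5 CPM (-0.20, edgeR adjusted p = 0.0360), and the ligase ARIH1 did not pass (130.1 against 133.1 CPM, edgeR adjusted p = 0.582).

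Among the 14 tested sensors and adaptors, 2 were higher and 2 lower (14.3% each), beside 14.0% higher and 17.7% lower over all tested genes. These shares are near each other, and nothing is read from the counts. IFIH1, which encodes the sensor MDA5, had 26, 22 and 18 counts in wild-type and 1, 1 and 4 counts in knockout libraries, a ratio of 9.66 (exact 95% counting interval 4.21 to 27.3, edgeR adjusted p = 0.000331). IFIH1 had enough counts to enter the fit only through the wild-type libraries, so it could only be called lower. The kinase gene IKBKE was also lower (-0.75, SE 0.25, edgeR adjusted p = 0.0438), but missed the threshold without wild-type replicate 2 (-0.679) or 3 (-0.769) or knockout replicate 1 (-0.735) or 2 (-0.515), with the replicate block (-0.760) and with DESeq2 (-0.743). The adjusted p values there were 0.0650 to 0.187. The adaptor genes TBKBP1 (0.38, SE 0.10, edgeR adjusted p = 0.0144) and AZI2 (0.18, SE 0.05, edgeR adjusted p = 0.0163) were higher. Their fold changes were nearly the same where they missed the threshold, TBKBP1 with the replicate block (0.376, edgeR adjusted p = 0.0548), and AZI2 with that block (0.183), with no filter on low counts (0.174) and without knockout replicate 1 (0.178) or 3 (0.185), at edgeR adjusted p values of 0.0577 to 0.0688. Of the 6 enzymes that act on RNA caps or 5′ ends, the ends that IFIT proteins bind, CMTR2, a cap methyltransferase, rose from 19.1 to 35.6 CPM (0.90, SE 0.07, edgeR adjusted p = 2.78e-06) and the other 5 did not pass.

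Of the 31 other interferon-stimulated genes tested, 15 were lower (48.4%), 5 were higher and 11 did not pass, beside 17.7% lower and 14.0% higher over all tested genes, with a median log2 fold change of -0.21 where that of all tested genes was 0.0031. The lower genes included some with few or no counts left in the knockout. NMI, which binds STAT proteins, had 32, 33 and 29 counts in wild-type and 1, 0 and 0 in knockout libraries, a ratio of 82.6 (exact 95% counting interval 14.5 to 3295, edgeR adjusted p = 1.24e-05). PARP9, a mono-ADP-ribosyltransferase family member, had 31, 28 and 24 counts against 1, 0 and 0, a ratio of 72.9 (interval 12.7 to 2914, edgeR adjusted p = 2.27e-05). Its binding partner DTX3L had 48, 33 and 28 counts against none, at least 31.9-fold lower when the knockout is set at 3 counts over the group. NMI, PARP9 and DTX3L, among others, had enough counts to enter the fit only through the wild-type libraries, so they could only be called lower. TRIM5, which restricts retroviruses, rose from 1.94 to 4.67 CPM (1.27, SE 0.14, edgeR adjusted p = 7.20e-05), and LGALS3BP, a secreted galectin-binding protein, rose from 9.47 to 15.9 CPM (0.75, SE 0.08, edgeR adjusted p = 3.74e-05). When genes had to reach 1 CPM in 3 libraries, 9 of 24 genes of this list were lower and 5 higher, beside 2777 lower and 2477 higher of 14310 tested genes. That filter still admits genes that reach 1 CPM in 1 group alone. The list was written with earlier results of these data known, so its shares are a description. IFNAR1, HERC5, ARIH1 and DTX3L lie outside the rule for named genes and were named after their values were seen.

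Genes whose promoter window holds the ISRE letters were then counted over the whole table. A window was found for 62.9% of the tested genes, under 80%, so a check over all tested genes is void because too many genes lack a value, and its counts are given only beside those for protein-coding genes. For the 11363 tested genes with a window, 21.4% were lower and 14.7% higher. Over protein-coding genes 82.3% of 13540 had a window (11147 genes), of which 21.6% were lower and 14.7% higher. Among the 415 protein-coding genes with a match, 27.5% were lower and 12.5% higher, against 21.3% and 14.8% of the 10732 without one. With a C required after the second GAAA, 111 genes were left, of which 41 (36.9%) were lower and 8 (7.21%) higher, with a median log2 fold change of -0.10. With the members and the pathway genes removed, 93 such genes were left, of which 30 (32.3%) were lower and 7 (7.53%) higher. Median expression was 23.9 CPM for genes with a match and 29.9 CPM for those without. For the stricter letters it was 26.6 CPM against 29.8 CPM, and 38.8 CPM against 29.8 CPM once members and pathway genes were removed. The part of expression level in these shares was not tested. Of the 21 tested pathway genes with a match, 12 were lower and 4 higher, beside 21.6% lower and 14.7% higher of protein-coding tested genes with a window. The 12 include IFIH1, NMI, PARP9 and DTX3L, which entered the fit only through the wild-type libraries and could only be called lower. Nothing is read from this count. Of the 52 with a window and no match, 7 were lower and 9 higher. Most of the 21 were from the list of other interferon-stimulated genes and most of the 52 from the other lists. These pooled counts therefore do not separate the match from the list. Within that list, the genes with a window and no match also included lower ones. IFI35, SP110, PNPT1 and TDRD7 were lower, and ADAR, HELZ2, NT5C3A and UBE2L6 did not pass. These genes were named after their values were seen, and the part of the match within the list was not tested.

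**Figure D3:**
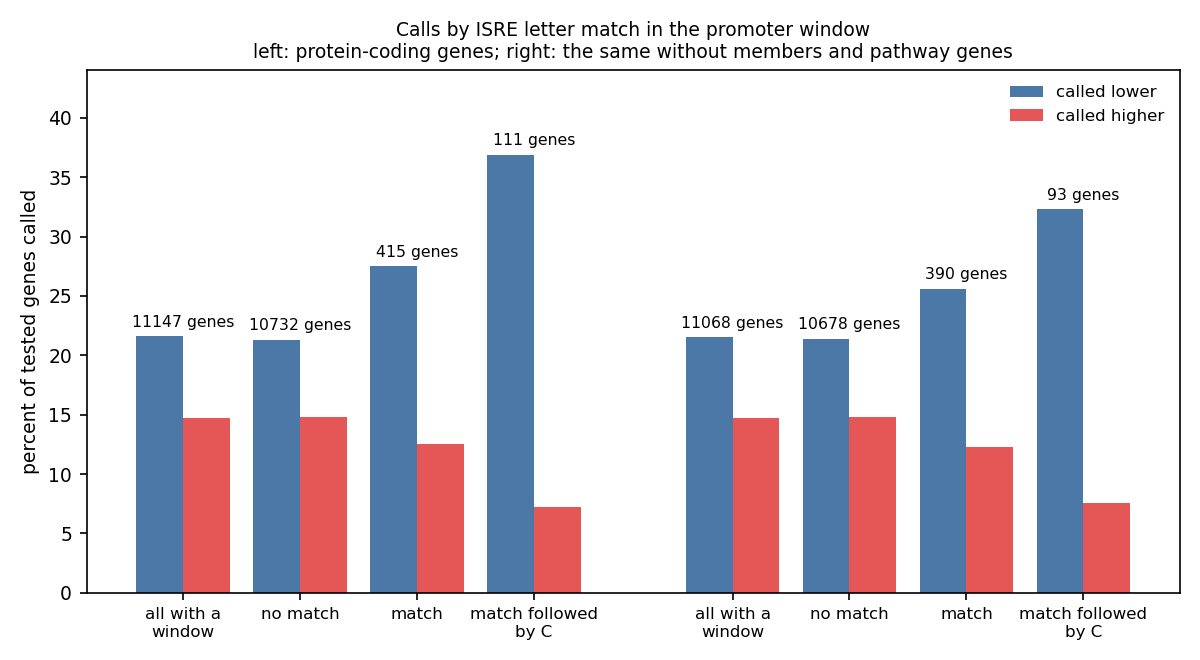
Share of genes called lower and higher in the knockout, in percent, for protein-coding genes with any promoter window, without and with ISRE letters in it, and with the letters followed by a C. The bars on the left have all such genes and those on the right leave out the members and pathway genes. The share called lower on the left is 21.3% without the letters, 27.5% with them and 36.9% with the C.

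The genes around the members were examined by position. On the IFIT5 side away from IFIT1, the nearest tested gene was PANK1 at 158.5 kb, which did not pass the test (0.09, SE 0.06, edgeR adjusted p = 0.328). LIPA, a lysosomal lipase gene on the minus strand whose exons overlap those of IFIT2 by 65 bases, was slightly lower (-0.24, SE 0.05, edgeR adjusted p = 0.00534). Of the 40 tested genes nearest IFIT5 with a mean of at least 2 CPM, which span chr10:80150889-94332823, 18 were lower and 1 higher, beside 17.7% lower and 14.0% higher over all tested genes. Their median was -0.18, and 1 had a lower log2 fold change than IFIT5. FAS, a death receptor gene beyond LIPA, was among the lower genes (-0.70, SE 0.13, edgeR adjusted p = 0.00212) and, with STAMBPL1 and BID, was named after its value was seen. USP18 had TUBA8 at 3.3 kb on one side (0.05, edgeR adjusted p = 0.886) and PI4KAP1 at 356.2 kb on the other (0.24, edgeR adjusted p = 0.0367), and the 29 genes around it had a median of 0.13, with 4 lower, 7 higher and none below USP18. The genes beside the other members differed by small amounts: HES4 and AGRN (0.13 and 0.11) beside ISG15, IL23A and TIMELESS (0.20 and 0.05) beside STAT2, PHRF1 and CDHR5 (both 0.08) beside IRF7, and RNF31 and REC8 (0.26 and 0.15) beside IRF9, of which RNF31 passed the test (edgeR adjusted p = 0.0228).

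**Figure D4:**
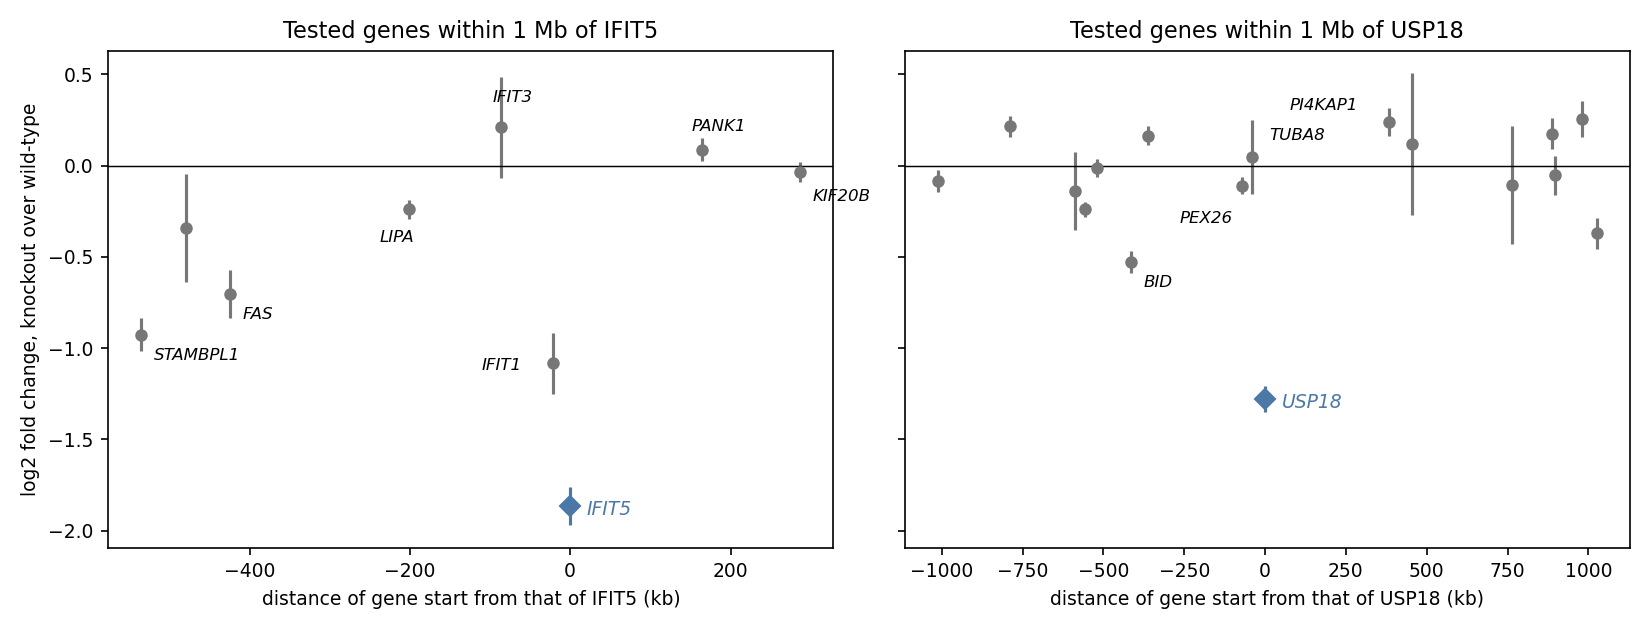
Log2 fold change, knockout against wild-type, of tested genes near IFIT5 (left) and USP18 (right), by distance of their starts in kilobases, with whiskers for the SE. IFIT5 and IFIT1 are the lowest points on the left, next to STAMBPL1 at -0.93, and USP18 is the lowest point on the right, below BID at -0.53.

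The tested genes whose profile over the 6 libraries was nearest to that of a member, by Euclidean distance between log2 CPM values centred on their own mean, were on other chromosomes and in none of the pathway lists. For IFIT5 they were SLC16A7, a monocarboxylate transporter (distance 0.0963), LAYN, a hyaluronan receptor (0.141), and EPHA3, an ephrin receptor (0.175), on chromosomes 12, 11 and 3. USP18 ranked 197 and IFIT1 ranked 370 in that order. For USP18 they were FADS2, a fatty acid desaturase (0.0657), CASP8, an apoptotic caspase (0.107), and ADAP2 (0.111), and IFIT1 ranked 448 and IFIT5 ranked 665. All of these profiles share the difference between the 2 groups of libraries, and the distances are a description.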

How the data were processed

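RNA was measured by poly(A) RNA-seq in 3 wild-type and 3 SMARCA3 knockout HEK293T libraries. The authors deposited raw counts per gene symbol for each library; per the submitters' processing notes, reads were handled with Trim Galore, STAR 2.4, Picard and HTSeq 0.9.1 against hg38, and DESeq2 was also used. Neither the gene annotation nor its strand mode for counting is stated, so reads of overlapping antisense genes cannot be told apart. Symbols were matched to positions in GENCODE v29 (80.2% of tested genes).

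Counts were analysed in R 4.3.3 with edgeR 4.0.16: genes were kept by filterByExpr, scaled by TMM and tested with glmQLFit and glmQLFTest on 2 groups without covariates, with Benjamini-Hochberg adjustment over all 18061 tested genes. The method was tested on simulated counts, with changes placed only in genes above a set mean count. Genes with few counts, such as NMI, PARP9 and IFIH1, were outside that test. Alternatives used limma 3.58.1 and DESeq2 1.42.0. Intervals for count ratios are exact 95% intervals and cover counting error only. Named genes were the 9 members, USP41 and IFIT1B, up to 2 called genes per direction of each pathway list by smallest p, the 3 nearest profiles of IFIT5 and USP18, and the nearest tested neighbours. The members and lists were chosen with earlier results of these data known.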

Additional observations from a re-analysis of the deposited data

How the results depend on the processing

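Over 14 alternative analyses (other scaling, filters, DESeq2, limma-voom, robust dispersion, a replicate block and each library left out), IFIT5 ranged from -1.915 to -1.775, USP18 from -1.297 to -1.254 and IFIT1 from -1.302 to -0.904 on the log2 scale, given as a description since they were chosen on this comparison. No named pathway gene turned its direction. The number of genes called ranged from 4232 to 6213 beside 5737, with 4251 to 6156 when each library was left out in turn. The pathway genes called numbered 36, with 28 to 38 across alternatives and 29 to 35 when each library was left out. Requiring at least 1 CPM in 3 libraries removed low genes and left 12 lower and 16 higher, and DESeq2 gave 14 lower and 15 higher, so the balance of 20 lower to 16 higher turned under both. For the other interferon-stimulated genes the 20 called became 14 with that filter (9 lower), and 17 to 20 with each library left out. The ISRE counts over all tested genes, the set whose check is void, were 172 of 429 (120 lower, 52 higher). Under the stricter letters, which select fewer genes, they were 49 of 114 (41 lower, 8 higher). Over protein-coding genes they were 166 of 415 (114 lower, 52 higher), and 148 of 390 (100 lower, 48 higher) without members and pathway genes. The last 2 sets were chosen after seeing the data. With each library left out, 122 to 184 were called over all tested genes, 84 to 113 of them lower. The other alternatives were not run on the protein-coding set, so they do not show whether its share of lower genes holds. Of the 17 named pathway genes, 11 were called in every alternative that tested them. IFNGR1, TYK2, IRF2BP2, TBKBP1, AZI2 and IKBKE lost the call in at least 1. IFIH1, NMI, PARP9 and IKBKE fell below the filter of 1 CPM in 3 libraries and were tested in 13 of the 14 alternatives. IRF7 moved to 0.409 without knockout replicate 1; the cause was not tested.

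The replicate numbers were not shown to pair the libraries: deviations from the group means of same-numbered libraries correlated at -0.226, -0.014 and -0.055. With the replicate block, 4232 genes were called, with 30 pathway genes (12 higher, 18 lower) and 20 other interferon-stimulated genes. Over all tested genes with ISRE letters, the set whose check is void, it called 125 of 429 (34 higher, 91 lower). Depth limits IFIT2, IFIT3, ISG15, IRF7 and IRF9, which had at most 56 counts in any library.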
